A study of Mus musculus with 4 samples.

Results

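The genes described here are 45 genes of the cell cycle and DNA replication: cyclins and their kinases, the E2F1 and FOXM1 regulators, the factors that license and copy DNA, the enzymes of deoxynucleotide supply, and the machinery of mitosis. They were chosen by name. Each gene was represented by the region of H3K23 propionylation that lists it and whose middle lay nearest to its transcription start, and 43 of the 45 genes had such a region, out of 17640 genes listed in the whole table. These were 43 different regions, out of 13042 regions nearest to any gene and 29210 regions in all. Mcm4 and Mcm10, a subunit of the replicative helicase and a factor that helps to start it, were in no region's gene list. The nearest regions lay 27.3 kb from Mcm4 and 28.8 kb from Mcm10, so neither has a value below.

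The data are 4 ChIP-seq libraries made with an antibody (Abcam) against histone H3 propionylated at lysine 23 (H3K23pr). Hearts came from male C57Bl/6J mice, 12 weeks old. Mice of the BCAA-free TAC group ate no branched-chain amino acids (BCAA) and had transverse aortic constriction, and BCAA-free sham mice ate the same with sham surgery. Control TAC and control sham mice had the same operations on a BCAA-control diet. TAC narrows the aorta and puts the left ventricle under pressure overload. The diets began 4 days before surgery, were kept on after it, and the hearts were taken 1 week later. The control diet held branched-chain amino acids at the level of standard chow. Each group had 1 library from a pool of 3 hearts of unsorted tissue, so no difference below has a replicate check and no test was possible. The words higher and lower compare libraries, not conditions, and fewer cells of a type cannot be told apart from less of the mark per cell. There was no input library. The sources used here do not give the scaling between libraries.

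Propionyl-CoA, from which the mark is made, arises in the breakdown of valine and isoleucine, and histone acyl marks of this kind are found at active promoters. Most adult cardiomyocytes have left the cell cycle, so genes of DNA replication and mitosis are active in few cells of a resting heart, whereas leukocytes, fibroblasts and endothelial cells can divide after injury. In dividing cells, S phase genes are switched on through E2F sites, and genes of G2 and mitosis through CCAAT boxes, which bind the factor NF-Y, together with the cell cycle homology region (CHR), which binds the MuvB complex with B-MYB and FOXM1.

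Most of these regions lay near the start of their gene. All 43 held a CpG island and a promoter, against 69.1% and 90.3% of the regions nearest to any gene. For 33 of the 43 genes the middle of the region lay within 2500 bases of the start, against 52.2% of all genes. The median length was 5600 bases, with a range of 2200 to 62600, against a median of 7200 for all genes. Of the 43 regions, 14 list 1 gene and 29 list several, so a ratio describes a region, whichever of its genes is named.

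To show what lies at these starts, the 250 bases before the start are printed for the 5 members that passed 1.5-fold in one of the 4 comparisons between libraries and had a promoter in the RefSeq table (Ttk, Bub1, Ccnb1, Ccnb2 and Rrm2), and for Cdk1 and Mcm6, which carry E2F elements. They are from RefSeq (GRCm38.p6), written 5′ to 3′ on the strand of the gene, and each lies inside the H3K23pr region of its gene. Capitals mark CCAAT, the CHR element TTTGAA and the E2F elements TTTGGCGC, TTTCCCGC, TTTCGCGC and TTTGCCGC, on either strand, so that ATTGG is a CCAAT box on the other strand. In Mcm6, 2 overlapping E2F elements on opposite strands appear as 1 run of capitals. Nusap1, which passed 1.5-fold only in the difference between the diets, is not printed, and its window holds none of these motifs.
Ttk (chr9:83834439-83834688, plus strand): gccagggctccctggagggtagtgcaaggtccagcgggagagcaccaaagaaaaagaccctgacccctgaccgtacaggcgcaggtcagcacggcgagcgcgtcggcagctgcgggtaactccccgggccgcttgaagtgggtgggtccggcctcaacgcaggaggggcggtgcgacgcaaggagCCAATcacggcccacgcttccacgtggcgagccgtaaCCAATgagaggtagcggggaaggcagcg
Bub1 (chr2:127831860-127832109, minus strand): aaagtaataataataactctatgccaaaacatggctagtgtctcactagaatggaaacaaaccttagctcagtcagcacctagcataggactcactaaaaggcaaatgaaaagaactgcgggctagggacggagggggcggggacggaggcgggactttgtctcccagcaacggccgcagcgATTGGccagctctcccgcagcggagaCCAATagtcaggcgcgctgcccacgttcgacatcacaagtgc
Ccnb1 (chr13:100786487-100786736, minus strand): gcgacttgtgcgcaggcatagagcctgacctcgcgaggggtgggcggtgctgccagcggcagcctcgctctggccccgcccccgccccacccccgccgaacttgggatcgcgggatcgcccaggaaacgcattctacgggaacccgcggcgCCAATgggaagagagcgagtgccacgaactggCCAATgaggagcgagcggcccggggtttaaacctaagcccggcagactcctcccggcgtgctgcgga
Ccnb2 (chr9:70421555-70421804, minus strand): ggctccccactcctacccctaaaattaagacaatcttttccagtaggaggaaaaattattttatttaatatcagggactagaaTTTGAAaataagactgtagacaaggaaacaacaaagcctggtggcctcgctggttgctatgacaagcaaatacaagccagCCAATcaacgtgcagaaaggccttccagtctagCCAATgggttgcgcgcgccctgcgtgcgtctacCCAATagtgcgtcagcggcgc
Rrm2 (chr12:24708004-24708253, plus strand): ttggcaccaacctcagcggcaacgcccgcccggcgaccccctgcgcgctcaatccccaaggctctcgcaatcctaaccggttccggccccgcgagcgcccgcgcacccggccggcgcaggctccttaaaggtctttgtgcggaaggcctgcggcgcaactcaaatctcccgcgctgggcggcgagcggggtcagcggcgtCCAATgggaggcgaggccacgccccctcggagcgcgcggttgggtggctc
Cdk1 (chr10:69352913-69353162, minus strand): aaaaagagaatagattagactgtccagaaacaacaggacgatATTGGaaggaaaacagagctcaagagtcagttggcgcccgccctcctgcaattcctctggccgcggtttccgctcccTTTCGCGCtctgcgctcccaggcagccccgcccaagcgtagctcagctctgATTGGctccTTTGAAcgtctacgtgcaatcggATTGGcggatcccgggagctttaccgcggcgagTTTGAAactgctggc
Mcm6 (chr1:128359706-128359955, minus strand): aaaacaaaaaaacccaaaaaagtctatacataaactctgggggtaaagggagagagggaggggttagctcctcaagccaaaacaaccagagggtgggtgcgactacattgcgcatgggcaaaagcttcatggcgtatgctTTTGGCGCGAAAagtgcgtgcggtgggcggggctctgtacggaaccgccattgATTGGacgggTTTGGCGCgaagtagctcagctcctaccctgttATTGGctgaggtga

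These motifs were common in the promoters of the group. The window searched ran from 250 bases before to 50 bases after the start, and 36 of the 45 genes had one in the table. For 31 of the 36 the 250 bases before the start lie inside the nearest region, and for Mcm10, which has no region, and Pcna, Aurka, Cdt1 and Cdc6 they do not. A CCAAT box was found in 28 of the 36 (77.8%), against 37.9% of 27025 promoters of all genes. The CHR element was found in 17 (47.2%), against 18.1% of all promoters, and in 13 of the 17 promoters of mitosis genes but 2 of the 13 promoters of S phase genes. An E2F element was found in 9 (25%), against 2.32%, and here the S phase genes held 6 of 13 and the mitosis genes 1 of 17. The printed promoters of Ttk, Bub1 and Ccnb1 each hold 2 CCAAT boxes, Ccnb2 and Cdk1 hold 3, and Mcm6 holds 3 E2F elements. Matches after the start, such as the CHR element of Ttk, are counted but not printed. A match is a description of the letters and not a bound site.

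On the control diet, most regions of cell cycle genes had more H3K23pr signal in control TAC than in control sham. The average signal (the density of sequenced fragments over the region, as deposited) had a median over the 43 regions of 7.32 in BCAA-free TAC, 7.23 in BCAA-free sham, 9.07 in control TAC and 7.26 in control sham. The control TAC library was thus the high one, while the other 3 lay close together. Over the regions of all genes the medians were 8.26, 8.45, 8.46 and 8.16 in the same order. Control TAC was the highest of the 4 libraries in 35 of the 43 regions, against 32.8% of the regions of all genes. BCAA-free TAC was the highest in 1 (16.4% of all regions), BCAA-free sham in 6 (29.8%) and control sham in 1 (21.0%).

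**Figure D1:**
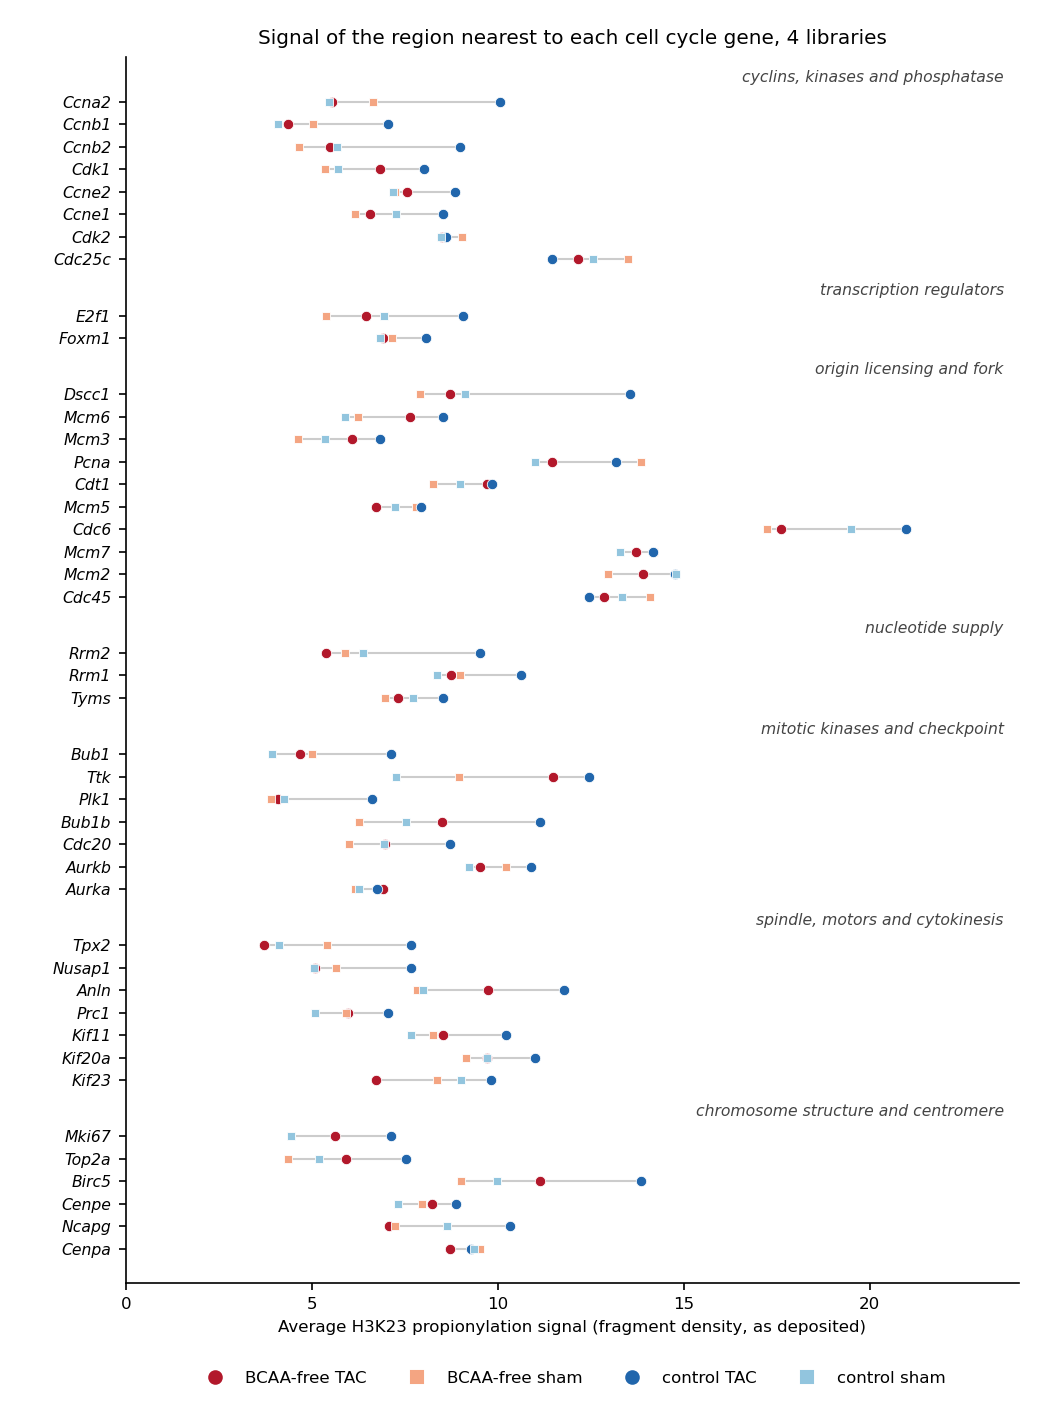
Average H3K23pr signal (horizontal axis, fragment density as deposited) of the region nearest to each of the 43 genes, grouped by role and ordered by the ratio of control TAC to control sham. Each point is 1 library, circles are TAC and squares are sham. The dark blue control TAC points lie farthest to the right in 35 of the 43 rows.

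The peak calls deposited by the authors come from the same libraries as the signal, so they are not separate evidence. A peak was called in 36 of the 43 regions in BCAA-free TAC, in 39 in BCAA-free sham, in all 43 in control TAC and in 35 in control sham. Of the regions of all genes, 89.9%, 90.3%, 89.7% and 87.7% had a peak in these libraries. The regions of Tpx2, Bub1, Ccnb2 and Dscc1 had a peak in control TAC alone. The deposited regions are merged peaks, so these 4 are present only through the library in which they were high. Those of Ccna2, Ccnb1 and Plk1 had one in BCAA-free sham and control TAC, and that of Nusap1 in every library but control sham. The other 35 regions had a peak in all 4 libraries (81.4%, against 79.4% of all genes).

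Ratios are given as log2((A + 1)/(B + 1)) of the average signals, and a region was called higher or lower past 1.5-fold (0.58 on this scale), which is a rule of size. On the control diet, the median TAC over sham log2 ratio of the 43 regions was 0.30 (quartiles 0.12 and 0.51, range −0.12 to 0.78), against 0.05 for all genes. The ratio was above the median of all genes in 38 of the 43. It passed 1.5-fold higher in 5 (11.6%), those of Ccna2, Tpx2, Bub1, Ttk and Ccnb1, against 3.18% of all regions, and 1.5-fold lower in 0, against 2.35%. The last inside the rule was Ccnb1 at 0.66, and the first outside it was Mki67 at 0.58. The regions of Ccna2, Tpx2, Bub1 and Ccnb1 had no peak in control sham. Of the 35 regions with a peak call in all 4 libraries, Ttk alone passed higher, against 1.4% of all genes' regions with such calls. The 95% interval from the estimated tags, which covers counting error only, lay above 0 in 26 of the 43 (60.5%, against 22.8% of all regions) and below 0 in 0 (against 14.9%). Among 8893 CpG island promoter regions the median was 0.05 and 1.06% passed 1.5-fold higher, below the values of the cell cycle genes.

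On the BCAA-free diet the same comparison gave a median of 0.04, against −0.03 for all genes. The range was −0.44 to 0.39, and 0 of the 43 regions passed 1.5-fold in either direction, against 0.989% of all regions higher and 0.859% lower. The counting interval lay above 0 in 7 regions (16.3%, against 10.9% of all regions) and below 0 in 3 (6.98%, against 17.5%). In sham hearts, the BCAA-free over control diet ratio had a median of 0.00 (range −0.32 to 0.32), against 0.04 for all genes. Again 0 regions passed 1.5-fold, against 1.23% of all regions higher and 0.598% lower.

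After TAC, the BCAA-free library had the lower signal at most of these regions. The median BCAA-free over control diet ratio in TAC was −0.24 (quartiles −0.46 and −0.14, range −0.88 to 0.08), against −0.03 for all genes. Of the 43 regions, 4 (9.30%), those of Tpx2, Ccna2, Rrm2 and Ccnb2, passed 1.5-fold lower, against 0.583% of all regions, and 0 passed higher, against 0.422%. The last inside was Ccnb2 at −0.62, and the first outside was Dscc1 at −0.58. The counting interval lay below 0 in 23 (53.5%, against 16.2% of all regions) and above 0 in 0 (against 6.97%). Among the 35 regions with a peak call in all 4 libraries Rrm2 alone passed lower, against 0.0483% of all genes' regions with such calls. This comparison uses the same control TAC library as the TAC comparison on the control diet, so a high value in that library moves both, and the pair are not separate evidence.

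The difference between the diets in the TAC ratio (BCAA-free minus control) had a median of −0.21, against −0.07 for all genes. It passed 1.5-fold lower in 6 regions, those of Tpx2, Ccna2, Ccnb1, Bub1, Nusap1 and Rrm2 (14.0%, against 2.25% of all regions), and higher in 0, against 1.17%. Its counting interval lay below 0 in 12 regions (27.9%, against 15.1% of all regions) and above 0 in 0 (against 5.94%). Among the 35 regions with a peak call in all 4 libraries Rrm2 alone passed lower, against 0.724% of all genes' regions with such calls. The TAC library had the higher signal on both diets in 24 regions (55.8%, against 33.0% of all regions), on the control diet alone in 15 (34.9%, against 26.4%) and on the BCAA-free diet alone in 1 (2.33%, against 10.3%), and the lower signal on both in 3 (6.98%, against 30.2%). With 1 library per group, the difference between the diets could not be tested.

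**Figure D2:**
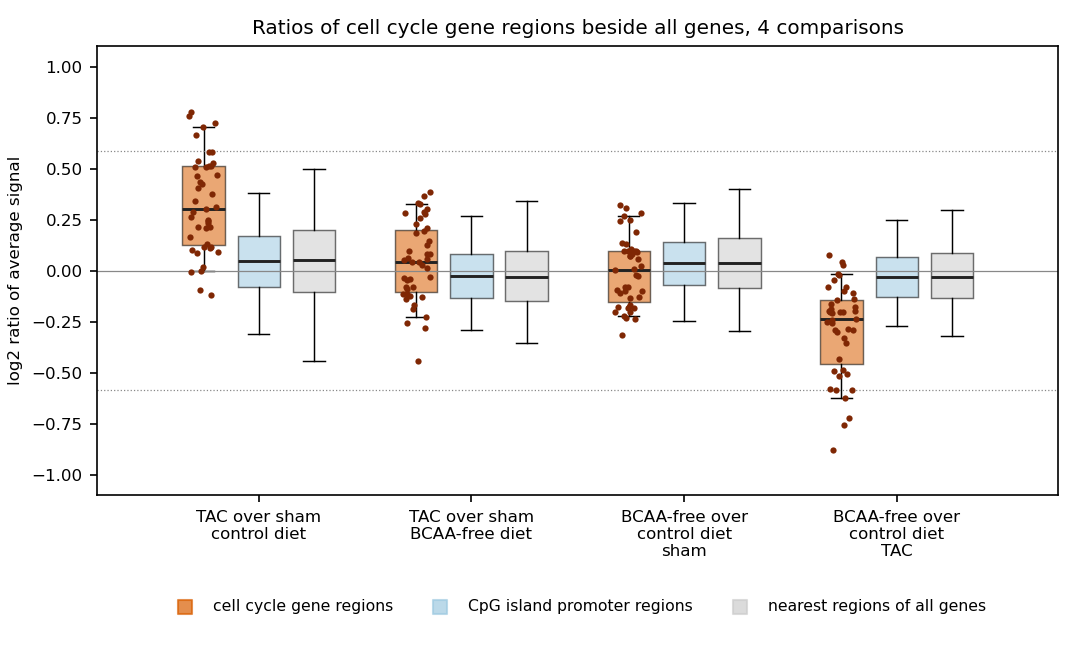
Log2 ratios of the average signal (vertical axis) in the 4 comparisons for the 43 cell cycle gene regions (orange, each point a region), 8893 CpG island promoter regions (blue) and the 13042 regions nearest to any gene (grey). Boxes span the quartiles around the median, whiskers reach the 5th and 95th percentiles, and dotted lines mark 1.5-fold. The orange boxes have medians of 0.30 (TAC over sham, control diet) and −0.24 for BCAA-free over control diet in TAC, and of 0.04 and 0.00 in the other comparisons.

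Among the cyclins and their kinases, the A- and B-type cyclins had the highest TAC over sham ratios on the control diet. Ccna2 encodes cyclin A2, which acts in S phase and G2. Its region, chr3:36570800-36573399 (mm10), also lists Exosc9 and Bbs7. The signal was 5.54 in BCAA-free TAC against 6.65 in BCAA-free sham, and 10.1 in control TAC against 5.46 in control sham. Control TAC was the high library, and the other 3 lay between 5.46 and 6.65. The TAC over sham log2 ratio was −0.23 on the BCAA-free diet (95% counting interval −0.64 to 0.18) and 0.78 on the control diet (0.39 to 1.16), and BCAA-free over control diet in TAC was −0.76 (−1.14 to −0.37).

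Ccnb1 and Ccnb2 encode the B-type cyclins that activate CDK1 for entry into mitosis. The Ccnb1 region, chr13:100783800-100787199, also lists the kinetochore gene Cenph and had a signal of 4.37 in BCAA-free TAC against 5.03 in BCAA-free sham, and 7.05 in control TAC against 4.08 in control sham. The Ccnb2 region, chr9:70420400-70422599, also lists Rnf111 and had 5.48 in BCAA-free TAC against 4.66 in BCAA-free sham, and 8.98 in control TAC against 5.68 in control sham. For both genes control TAC lay above the other 3 libraries. The TAC ratio of Ccnb1 was −0.17 on the BCAA-free diet (−0.56 to 0.22) and 0.66 on the control diet (0.29 to 1.04). That of Ccnb2 was 0.19 (−0.28 to 0.67) on the BCAA-free diet and 0.58 (0.16 to 1.00) on the control diet, just under 1.5-fold, and its BCAA-free over control diet ratio in TAC was −0.62 (−1.05 to −0.20).

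Cdc25c, the phosphatase that activates CDK1, was the gene of this group with the lowest TAC ratio on the control diet. Its signal was 12.1 in BCAA-free TAC against 13.5 in BCAA-free sham, and 11.5 in control TAC against 12.5 in control sham. The TAC library was the lower one on both diets, with ratios of −0.14 (BCAA-free diet) and −0.12 (control diet) whose counting intervals include 0. The middle of this region lay 9566 bases upstream of the start. The region also lists Fam53c and 2010110K18Rik. Over the 8 genes of the group (these 4 with Ccne1, Ccne2, Cdk1 and Cdk2), the median TAC ratio was −0.01 on the BCAA-free diet and 0.35 on the control diet, and 7 of the 8 were above 0 on the control diet. Of all regions, 59.4% were above 0 on that diet.

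The mitotic kinases and checkpoint genes had the highest median of the 7 role groups on the control diet, 0.51 over 7 genes, all of them above 0, against 0.14 on the BCAA-free diet. On the control diet 59.4% of all regions were above 0. Bub1 encodes a kinase of the spindle assembly checkpoint. Its region, chr2:127831400-127833599, lists Bub1 alone and had a signal of 4.67 in BCAA-free TAC against 5.0 in BCAA-free sham, and 7.12 in control TAC against 3.93 in control sham. Ttk encodes MPS1, the kinase that starts the checkpoint, and its region, chr9:83833200-83835799, lists Ttk alone. It had 11.5 in BCAA-free TAC against 8.95 in BCAA-free sham, and 12.5 in control TAC against 7.26 in control sham. The pair differed on the BCAA-free diet. The Bub1 ratio of TAC over sham was −0.08 (−0.56 to 0.40) on that diet and 0.72 (0.25 to 1.19) on the control diet, while Ttk had 0.33 (−0.01 to 0.66) on the BCAA-free diet and 0.70 (0.36 to 1.05) on the control diet, so that for Ttk both TAC libraries lay above both sham libraries.

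Bub1b, which encodes the checkpoint protein BUBR1, had the highest TAC ratio of the 43 regions on the BCAA-free diet. Its region lists Bub1b alone and had a signal of 8.49 in BCAA-free TAC against 6.27 in BCAA-free sham, and 11.1 in control TAC against 7.53 in control sham. The TAC ratio was 0.39 (0.19 to 0.59) on the BCAA-free diet and 0.51 (0.33 to 0.69) on the control diet, with both counting intervals above 0. Aurka, which encodes the centrosomal Aurora A kinase, had nearly the same signal everywhere, with 6.90 in BCAA-free TAC against 6.15 in BCAA-free sham, and 6.74 in control TAC against 6.26 in control sham. The middle of the Aurka region lay 22407 bases downstream of the start, and the region also lists Fam210b. The other 3 genes of this group were Aurkb, Plk1 and Cdc20. Of them, Plk1, the kinase that drives entry into mitosis, had 4.09 in BCAA-free TAC against 3.90 in BCAA-free sham, and 6.62 in control TAC against 4.25 in control sham.

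Among spindle, motor and cytokinesis genes, Tpx2 had the highest and Kif23 the lowest ratio of TAC over sham with the control diet. Tpx2 encodes the spindle factor that activates Aurora A. Its region, chr2:152846200-152850399, lists Tpx2 alone and had a signal of 3.72 in BCAA-free TAC against 5.41 in BCAA-free sham, and 7.67 in control TAC against 4.13 in control sham. The TAC library was the lowest of the 4 on the BCAA-free diet and the highest on the control diet. The ratio of TAC over sham was −0.44 (−0.80 to −0.08) on the BCAA-free diet and 0.76 (0.43 to 1.09) on the control diet, and BCAA-free over control diet in TAC was −0.88 (−1.22 to −0.54), the lowest of the 43 regions. Kif23 encodes the kinesin of the central spindle, and its region, which also lists Paqr5, had 6.72 in BCAA-free TAC against 8.38 in BCAA-free sham, and 9.81 in control TAC against 9.01 in control sham. The ratios were −0.28 (−0.52 to −0.03) on the BCAA-free diet and 0.11 (−0.11 to 0.34) on the control diet.

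The 7 genes of this group (with Nusap1, Anln, Prc1, Kif11 and Kif20a) had a median TAC ratio of 0.01 on the BCAA-free diet and 0.40 on the control diet, and all 7 were above 0 on the control diet. Of all regions, 59.4% were above 0 on that diet. Further regions away from the start also list Kif11 and Anln. A region upstream of Kif11, with its middle 6204 bases before the start, had a signal of 4.95 in BCAA-free TAC against 2.98 in BCAA-free sham, and 6.69 in control TAC against 3.49 in control sham, which gave TAC ratios of 0.58 on the BCAA-free diet and 0.78 on the control diet. Both TAC libraries were higher there than both sham libraries. Inside and beyond Anln, which encodes anillin of the cleavage furrow, 3 downstream regions had TAC ratios of 0.27 to 0.44 on the BCAA-free diet and 0.31 to 0.39 on the control diet.

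Genes of chromosome structure and the centromere (Mki67, Top2a, Birc5, Cenpe, Ncapg and Cenpa) had a median TAC ratio of 0.16 on the BCAA-free diet and 0.34 on the control diet. Top2a encodes the topoisomerase that untangles sister chromatids. Its region lists Top2a alone and had a signal of 5.92 in BCAA-free TAC against 4.37 in BCAA-free sham, and 7.54 in control TAC against 5.19 in control sham. Both TAC libraries lay above both sham libraries, with ratios of 0.37 (0.05 to 0.68) on the BCAA-free diet and 0.46 (0.17 to 0.76) on the control diet. Mki67, which encodes the proliferation marker Ki-67, had 5.63 in BCAA-free TAC against 4.44 in BCAA-free sham, and 7.12 in control TAC against 4.43 in control sham. Its ratio of 0.58 (0.41 to 0.76) on the control diet was just under 1.5-fold, and that on the BCAA-free diet was 0.29 (0.10 to 0.47). Cenpa, the histone H3 variant of centromeres, had 8.72 in BCAA-free TAC against 9.52 in BCAA-free sham, and 9.28 in control TAC against 9.35 in control sham, with no clear high library.

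Genes that license origins and run the fork had the lowest median of the role groups on the control diet. It was 0.12 over the 10 genes with a region, against 0.06 on the BCAA-free diet. Of these 10, 0 passed 1.5-fold in a comparison. That is near the share of all regions, of which 3.18% passed higher and 2.35% lower on the control diet, and fewer in the other comparisons. In this group the middles for Cdc6, Cdt1, Pcna and Mcm2 lay 37410, 7684, 5781 and 5619 bases from the start. Over the 43 regions, the control-diet median was 0.11 with the middle beyond 2500 bases and 0.37 within. The part of distance in the order of the role groups was not tested. Mcm2 and Mcm3 encode subunits of the helicase ring. Mcm2 had a signal of 13.9 in BCAA-free TAC against 13.0 in BCAA-free sham, and 14.8 in control TAC against 14.8 in control sham, in a region that also lists Tpra1. Mcm3 had 6.08 in BCAA-free TAC against 4.62 in BCAA-free sham, and 6.82 in control TAC against 5.36 in control sham, in a region that lists Mcm3 alone. The Mcm2 ratio of TAC over sham was 0.09 on the BCAA-free diet and −0.00 on the control diet, and that of Mcm3 was 0.33 (0.05 to 0.62) on the BCAA-free diet and 0.30 (0.03 to 0.57) on the control diet. For Mcm3 both TAC libraries lay above both sham libraries, and for Mcm2 they did not.

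Cdc45, which joins the ring to form the active helicase, had a signal of 12.9 in BCAA-free TAC against 14.1 in BCAA-free sham, and 12.5 in control TAC against 13.4 in control sham. The TAC library was the lower one on both diets, with counting intervals that include 0. Cdt1, which loads the ring onto origins, had 9.70 in BCAA-free TAC against 8.26 in BCAA-free sham, and 9.84 in control TAC against 8.99 in control sham, in a region with its middle 7684 bases downstream that also lists Aprt and Galns. Pcna, the sliding clamp, had 11.4 in BCAA-free TAC against 13.9 in BCAA-free sham, and 13.2 in control TAC against 11.0 in control sham. Its TAC ratio was −0.26 (−0.50 to −0.01) on the BCAA-free diet and 0.24 (−0.01 to 0.49) on the control diet, and its diet ratio in sham of 0.31 was the second highest of the 43 regions. The Pcna region also lists Tmem230, and its middle lay 5781 bases from the start.

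Of the enzymes of nucleotide supply, Rrm2, the regulated subunit of ribonucleotide reductase, passed 1.5-fold lower in BCAA-free TAC against control TAC. Its region, chr12:24705600-24712199, lists Rrm2 alone and had a signal of 5.37 in BCAA-free TAC against 5.89 in BCAA-free sham, and 9.51 in control TAC against 6.38 in control sham. The ratio of BCAA-free over control diet in TAC was −0.72 (−0.97 to −0.48), and the TAC ratio was −0.11 (−0.38 to 0.15) on the BCAA-free diet and 0.51 (0.27 to 0.74) on the control diet. The group, with Rrm1 and the thymidylate synthase gene Tyms, had a median TAC ratio of −0.04 on the BCAA-free diet and 0.31 on the control diet. Of the transcription regulators, E2f1 had 6.46 in BCAA-free TAC against 5.38 in BCAA-free sham, and 9.07 in control TAC against 6.94 in control sham. Its diet ratio in sham of −0.32 was the lowest of the 43 regions, and its TAC ratio was 0.23 (−0.05 to 0.50) on the BCAA-free diet and 0.34 (0.09 to 0.59) on the control diet. With Foxm1, the median of these 2 genes was 0.09 on the BCAA-free diet and 0.28 on the control diet.

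**Figure D3:**
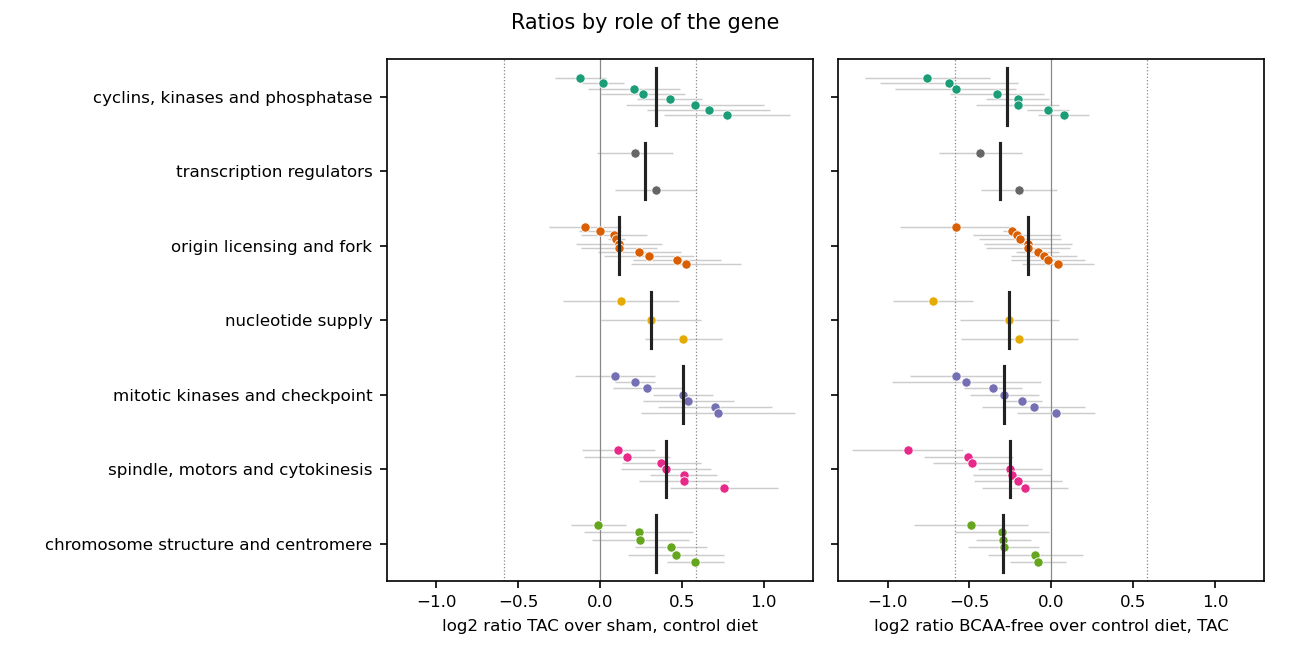
Log2 ratios (horizontal axes) of control TAC over control sham (left) and of BCAA-free over control diet in TAC (right), by role of the gene. Points are regions, sorted within each role and panel, thin bars are 95% counting intervals, black bars are medians, and dotted lines mark 1.5-fold. On the left the medians run from 0.12 for origin licensing and fork genes to 0.51 for mitotic kinases and checkpoint genes. Both panels use the control TAC library.

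The 24 members outside the rule for named genes (Mki67 and Plk1 among them) had control-diet TAC ratios of 0.02 to 0.58, with a median of 0.28, and BCAA-free diet TAC ratios of −0.19 to 0.30, with a median of 0.05. Their diet ratios in TAC ran from −0.58 to −0.02. That all were below 0 follows from the selection, since the rule names the 3 highest, the only ones of the 43 above 0. Over the 43 regions, 40 had a diet ratio in TAC below 0, against 57.6% of all regions. Further regions farther from the start, 24 in number, list 19 genes of the group, with their middles 6204 to 68736 bases away, and 16 of them hold a promoter. The median TAC ratio of these regions was 0.03 on the BCAA-free diet and 0.05 on the control diet, and their median diet ratio in TAC was −0.03. These medians lay nearer to those of all genes than the medians of the 43 nearest regions did. Of these 24 regions, 1 passed 1.5-fold higher on each diet, against 3.18% of all regions on the control diet and 0.989% on the BCAA-free diet. The 1 past 1.5-fold on the control diet is the region upstream of Kif11. The 1 past 1.5-fold on the BCAA-free diet lies 25626 bases downstream of the start of Tyms, with a signal of 6.96 in BCAA-free TAC against 3.24 in BCAA-free sham, and 5.76 in control TAC against 4.39 in control sham.

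The TAC ratios of the 2 diets share no library. Across the 43 regions they had a Pearson r of 0.15 and a Spearman rho of 0.21, as a description of regions that share the same 4 libraries. Across the 13042 regions of all genes r was 0.51 and rho 0.46, and across the 8893 CpG island promoter regions r was 0.43 and rho 0.40. The 5 genes past 1.5-fold on the control diet spread on the other diet from −0.44 for Tpx2 to 0.33 for Ttk.

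**Figure D4:**
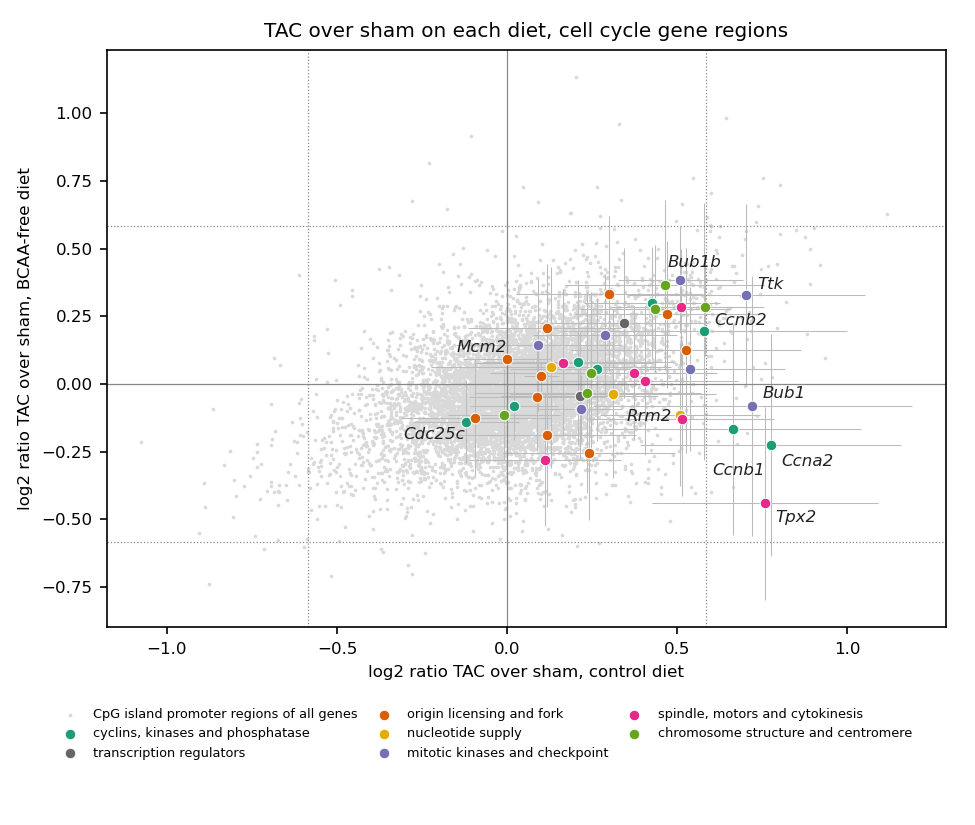
Log2 ratio of TAC over sham on the BCAA-free diet (vertical axis) against that on the control diet (horizontal axis). Coloured points are the 43 cell cycle gene regions by role with 95% counting intervals as thin bars, and grey points are 8893 CpG island promoter regions. Dotted lines mark 1.5-fold. Of the coloured points, 5 lie past 1.5-fold to the right and 0 past 1.5-fold upward or downward, and Tpx2 lies farthest to the lower right at 0.76 and −0.44.

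The control-diet ratio was larger where the signal was low. Against the log2 signal in the BCAA-free sham library, which is not in that ratio, r was −0.65 and rho −0.66 over the 43 regions, against −0.20 and −0.18 over all genes and −0.17 and −0.15 over CpG island promoter regions. The 22 regions with a BCAA-free sham signal of at most 7.23 had a median ratio of 0.47 and 4 of them passed 1.5-fold higher (18.2%), against a median of 0.10 and 8.50% for regions of all genes at that level. The 21 regions above it had a median of 0.16 and 1 passed (4.76%), against 0.03 and 0.540%. Low regions rest on fewer tags, and the estimated tags of the Bub1 region were 45.9 in BCAA-free TAC, 49.1 in BCAA-free sham, 69.9 in control TAC and 38.5 in control sham. The deposited regions are merged peaks, so a region low in the other libraries is present only through a library high enough for a peak. Of the low regions, those of Tpx2, Bub1 and Ccnb2 had a peak in control TAC alone. The 4 low regions past 1.5-fold (Ccna2, Tpx2, Bub1 and Ccnb1) had no peak in control sham. The parts of signal level and of this selection in the ratios were not tested.

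**Figure D5:**
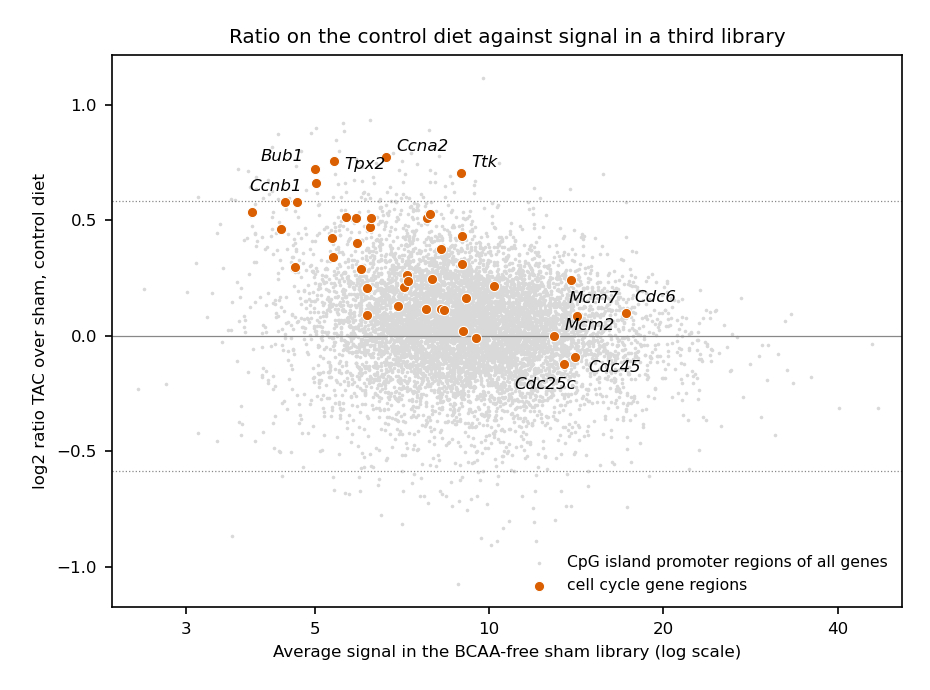
Log2 ratio of control TAC over control sham (vertical axis) against the average signal in the BCAA-free sham library (horizontal axis, log scale), for the 43 cell cycle gene regions (orange) and 8893 CpG island promoter regions (grey). Dotted lines mark 1.5-fold. The orange points run from high ratios at low signal (Bub1, Tpx2, Ccna2) to ratios near 0 at high signal (Mcm2, Cdc6, Cdc45), with r = −0.65.

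By motif, the 17 genes with a CHR element and a region had a median control-diet TAC ratio of 0.40, and the 18 without one 0.27. The 9 genes with an E2F element had 0.12, and the 26 without one 0.39. The 27 genes with a CCAAT box had 0.31, and the 8 without one 0.28. On the BCAA-free diet the medians were 0.14 with and −0.00 without a CHR element, and 0.03 with and 0.06 without an E2F element. For Cdt1 and Cdc6 (E2F), Aurka (CCAAT and CHR) and Pcna (CCAAT), the promoter lies outside the region whose ratio was used. The median of 0.12 with an E2F element is the value of Cdt1. The motifs go with the role of the gene, as given above, and the differences were not tested.

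Beyond the 45 genes, a list of 100 other cell cycle genes had 98 with a region, none of them shared with the 43. Their median TAC ratio was −0.00 on the BCAA-free diet and 0.20 on the control diet. On the control diet 6 of the 98 (6.12%) passed 1.5-fold higher, against 3.18% of all regions, and 0 lower, against 2.35%. With the BCAA-free diet 0 passed in either direction, against 0.989% of all regions higher and 0.859% lower. By kind, the control-diet median was 0.27 for 31 mitosis genes, 0.24 for 20 cyclins, kinases and G1/S genes, 0.15 for 36 licensing and replication genes, and 0.04 for 11 inhibitors. Mitosis genes had a higher median than replication genes here, as among the 43 regions.

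Of these other genes, Cit, which encodes citron kinase of the cleavage furrow, had the highest control-diet ratio. Its signal was 5.45 in BCAA-free TAC against 5.99 in BCAA-free sham, and 9.93 in control TAC against 5.04 in control sham, which gave TAC ratios of −0.12 on the BCAA-free diet and 0.86 (0.46 to 1.25) on the control diet. The others past 1.5-fold were the kinesin gene Kif18b at 0.73, Depdc1a at 0.71, the spindle gene Ckap2 at 0.69, the pocket protein gene Rbl1 at 0.65 and the kinetochore gene Cenpf at 0.64. In TAC, the BCAA-free over control diet ratio had a median of −0.17 over the 98. It passed 1.5-fold lower in 6 (6.12%), against 0.583% of all regions, and higher in 0, against 0.422%. Mybl2, which encodes B-MYB, had the lowest, at −0.94 (−1.41 to −0.47), with a signal of 3.59 in BCAA-free TAC against 5.52 in BCAA-free sham, and 7.83 in control TAC against 5.33 in control sham. The other 5 were Cenpf at −0.85, the centrosome kinase gene Nek2 at −0.81, Cit at −0.76, the kinetochore gene Spc25 at −0.61 and the cyclin F gene Ccnf at −0.59. The difference between the diets in the TAC ratio had a median of −0.18. It passed 1.5-fold lower in 7 of the 98 (7.14%), against 2.25% of all regions. Mybl2 at −0.98 and Cit at −0.97 were the lowest.

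Marker genes of the cell types in the heart also differed between the libraries. The summed signal of 13 leukocyte markers was 118 in BCAA-free TAC, 91.3 in BCAA-free sham, 142 in control TAC and 94.9 in control sham. Their median TAC ratio was 0.39 on the BCAA-free diet (2 past 1.5-fold) and 0.59 on the control diet (7 past). Of all regions, 0.989% and 3.18% passed 1.5-fold higher. The median BCAA-free over control diet ratio of these markers in TAC was −0.22. The macrophage gene Adgre1 (Emr1 in the table) had 5.60 in BCAA-free TAC against 5.26 in BCAA-free sham, and 10.5 in control TAC against 5.69 in control sham, with control TAC as the high library. Its diet ratio in TAC of −0.80 was the lowest of the 13 and the only one past 1.5-fold. Its TAC ratio on the BCAA-free diet was 0.08, below the list's median, whereas on that diet Ptprc, the pan-leukocyte antigen CD45, had 0.52 and Aif1, a macrophage gene, had 0.74. The TAC ratio was above 0 for 12 of the 13 leukocyte markers on the BCAA-free diet and for all 13 on the control diet. For the cell cycle genes the counts were 25 of 43 (58.1%) and 39 of 43 (90.7%). Of all regions, 43.3% and 59.4% were above 0.

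The 8 fibroblast markers summed to 76.3 in BCAA-free TAC, 78.6 in BCAA-free sham, 67.7 in control TAC and 55.1 in control sham. Their median TAC ratio was −0.14 on the BCAA-free diet (3 of 8 above 0) and 0.23 on the control diet (8 of 8). Their median diet ratio in sham was 0.50, with 4 past 1.5-fold higher, against 1.23% of all regions. The 7 endothelial markers summed to 60.9, 64.8, 65.0 and 72.4 in the same order of libraries. Their median TAC ratio was −0.05 on the BCAA-free diet and −0.18 on the control diet. The 12 cardiomyocyte markers, which define the tissue, summed to 104, 130, 93.6 and 138, with a median TAC ratio of −0.33 on the BCAA-free diet and −0.55 on the control diet. The lowest signal of any of these marker regions in a library was 3.70, so no list had a marker at 0. The part of leukocytes, fibroblasts and other cell types in the ratios of the cell cycle genes was not tested.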

How the data were processed

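H3K23pr ChIP-seq was analysed in 4 libraries, 1 per group, each a pool of 3 hearts. The submitters' processing notes name BWA, MACS2 and mm10 but give no versions or roles. The authors deposited 1 table of merged peak regions, and per the file headers it holds for each library an average signal, a peak height (also a signal) and a 0 or 1 for a peak call. The authors also deposited log2 ratios and tag numbers for library pairs. These log2 ratios equalled the log2 quotient of the average signals to within 4.44e-16, and the tag numbers equalled signal times region length over 224. The same relation gave the estimated tags of each library, from which the 95% counting intervals were computed. A tag is not known to be 1 molecule, so the intervals cover counting error only.

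From the average signal as deposited, the log2 of (A + 1)/(B + 1) was taken for every region nearest to a gene, with no filter. This scale understates ratios of low regions. Groups were taken from the treatment labels. No test was run with 1 library a group. Members of the list were estimated to hold 38.5 to 5863 tags per region and library, and the median counting error (SE) of their log2 ratio was 0.129 to 0.135 over the 4 comparisons. Promoter sequences were taken from the RefSeq table of GRCm38.p6, and 36 of the 45 genes matched by symbol. The genes with none are Ccne2, Mcm4, Aurkb, Ccna2, Foxm1, Dscc1, Cdc25c, Tpx2 and Kif20a. Values in all libraries are given for members past 1.5-fold in a comparison and for the 3 highest and 3 lowest of each comparison (19 genes). Mki67, Plk1, Dscc1, Nusap1, Adgre1, Ptprc, Aif1 and the further regions of Kif11, Anln and Tyms were named after their values were seen. The genes, the lists of other cell cycle genes and of markers, and the comparisons were chosen with earlier results of these data known. The scripts used Python 3.11.15, numpy 2.4.6, pandas 2.3.3 and scipy 1.17.1 with matplotlib 3.10.9, and were tested on simulated data. Alternatives were the raw quotient, peak height, libraries scaled to the same median, the region of highest signal per gene, each gene counted once, and members limited by distance, genes per region, signal or peak calls. Removal of the trend with signal and quantile normalisation were added after the data were seen.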

Additional observations from a re-analysis of the deposited data

Results flagged for a closer look

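The region of Tpx2 had opposite directions on the diets. A peak was called there in control TAC alone. The estimated tags were 69.7 in BCAA-free TAC and 101 in BCAA-free sham. TAC over sham was −0.44 on the BCAA-free diet and 0.76 on the control diet on the log2 scale, and the difference between them was −1.20 (95% counting interval −1.69 to −0.71). Each group is 1 library, so the difference between the diets was not tested. The other regions that list Tpx2, with their middles 14235 and 57035 bases downstream of the start, had −0.13 and −0.10 on the BCAA-free diet, and 0.35 and −0.18 on the control diet.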

How the results depend on the processing

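Of 15 results (the medians and the 1.5-fold counts of the 43 regions), recomputed under 11 alternatives, 129 of 165 values stayed close to those reported. Of the 129, 15 come from counting each gene once, which could change no value because the 43 genes have 43 different regions. For TAC over sham on the control diet, the median was 0.42 with peak height, 0.21 with each gene's strongest region, 0.37 with the middle within 2500 bases of the start, 0.49 with regions that list 1 gene, 0.23 with regions of mean signal above the median of all regions and 0.24 with a peak call in all 4 libraries. The count of regions past 1.5-fold higher, 5 as reported, was 9 without the pseudocount (all genes 4.80%), 13 with peak height (9.02%), 3 with each gene's strongest region (2.88%), 3 of 14 with regions that list 1 gene (4.01%), 2 of 30 above the median signal (1.5%) and 1 of 35 with a peak call in all 4 (1.4%). On the BCAA-free diet the median was 0.10 with the same median signal, 0.18 with regions that list 1 gene, 0.10 with the trend removed and 0.11 with quantile normalisation, and peak height put 1 region past 1.5-fold higher (all genes 4.85%) and 3 lower (4.96%). For diet in sham the median was −0.052 with regions that list 1 gene and −0.060 with quantile normalisation, and peak height put 4 higher (6.59%) and 1 lower (2.87%). For diet in TAC, the median was −0.16 with each gene's strongest region, and the count of regions lower (4 as reported) was 9 without the pseudocount (all genes 1.1%), 11 with peak height (3.40%, and 1 higher, 3.58%), 2 with regions that list 1 gene (0.826%), 1 above the median signal (0.161%) and 1 with a peak call in all 4 (0.0483%). For the difference between the diets, the median was −0.13 with each gene's strongest region, −0.14 with a peak call in all 4 and −0.13 with the trend removed, and the count lower (6 as reported) was 13 with peak height (10.8%), 3 with regions that list 1 gene (2.90%), 1 above the median signal (1.1%) and 1 with a peak call in all 4 (0.724%). Percentages are the share of all genes' regions under the same setting. In these settings the control-diet TAC median stayed above 0 and the diet median in TAC below 0. Of 304 ratios recomputed for the 19 named genes 259 stayed close, and 2 reversed. With each gene's strongest region, TAC over sham on the control diet was −0.050 for Bub1 and −0.18 for Tpx2, because that setting takes a region away from the start. For the other changes the cause was not tested.

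No paired analysis was possible because each group has 1 library. Regions with few tags limit single genes, as the Bub1 interval of 0.25 to 1.19 shows. No library could be left out, since that ends a comparison.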
